A study of Mus musculus with 21 samples.

Results

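The histone genes described here are the 66 rows of the gene table, of 22512, whose symbol belongs to the replication-dependent histone naming series. They comprise 7 H1, 18 H2A, 17 H2B, 12 H3 and 12 H4 genes, and were taken by symbol. The rule itself uses no measured value, but the members were chosen with earlier results of these data known. All 66 had enough counts to be tested. Chromosome 13 carries 55 of them, chromosome 3 carries 10, and chromosome 6 carries 1. That gene, H1f10 (older name H1fx), is a linker histone made outside S phase which shares the naming series, so the name of the group does not hold for it. Histone genes of the table whose symbols lie outside the rule, such as Hist1h2al, H2aw, H2bu2, H2bu1-ps and H4f16, are not members.

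RNA-seq was made from mouse embryonic stem cells of strain 129S6/SvEvTac in 7 groups of 3 libraries. All groups derive from the line labelled GFP_5xT71BS, a GFP reporter line that also carries a stable FLAG-Cas9::T2A::Blasticidin construct, and all were grown in serum with LIF on gelatin. The first experiment compared the parental line (W) with its Trim71-/- (Trim71KO) and Ago2-/- (Ago2KO) derivatives. The second compared transfection of pCIP FH-T6B_WT::mCherry (T6B_WT) or pCIP FH-T6B_MUT::mCherry (T6B_MUT) with Trim71-/- and Ago2-/- cells given an empty plasmid (Trim71KO_empty and Ago2KO_empty). T6B is a peptide of a GW182 protein which binds to Argonaute proteins. Trim71 is an RNA-binding protein of stem cells, and Ago2 is an Argonaute protein, the kind that microRNAs guide to their targets. The second experiment has no unedited cells with an empty plasmid, so its knockout groups differ from the T6B_MUT control in genotype and plasmid together. The labels do not say how many clones stand behind a knockout group, and nothing beyond the word biological in the design text describes how the replicates were obtained, so p-values measure only the spread between these libraries.

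In units of 1000000 counts, libraries held 29.6 to 50.8 in the first experiment and 33.9 to 57.9 in the second. Trim71 was at 602, 602 and 618 CPM (counts scaled to 1000000 per library) in W and at 412, 416 and 459 CPM in Trim71KO (log2 fold change -0.50), and Ago2 was at 153, 134 and 139.5 CPM in W and 43.6, 42.5 and 39.8 CPM in Ago2KO (-1.76). In Trim71KO_empty, Trim71 was at 405, 409 and 393 CPM against 482, 493 and 503 CPM in T6B_MUT (-0.29, adjusted p = 0.0117). In the 3 libraries labelled Ago2KO_empty, Ago2 stood at 87.4, 167 and 45.6 CPM, which overlaps the 113, 143 and 112 CPM of T6B_MUT, so that label is not borne out by its gene. The 8 embryonic stem cell markers summed to 3910 to 5268 CPM per library. Their sum was 4892 to 5268 CPM in Trim71KO against 4144 to 4378 CPM in W. It was 4850 to 5074 CPM in Trim71KO_empty against 4208 to 4361 CPM in T6B_MUT. By edgeR 5 rose and 1 fell in both cases, beside 32.6% and 27.8% of all genes called. In Ago2KO 2 rose, in T6B_WT 2 rose and 1 fell, and in Ago2KO_empty 2 rose and 2 fell (18.0%, 16.0% and 28.8% of all genes). The part of these markers in the histone values was not tested. Summed markers of primitive endoderm, fibroblasts, trophoblast and two-cell-like cells differed between groups and are given with each comparison; no listed marker of the table was at 0 in any group.

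Replication-dependent histone genes supply the histones that package newly copied DNA, and they are transcribed mainly in S phase. Their transcripts are, as a rule, neither spliced nor polyadenylated. Each ends just after a short hairpin, the histone stem-loop, which is bound by the stem-loop binding protein (Slbp), and the U7 snRNP directs the cut that makes this end. H2A, H2B, H3 and H4 form the nucleosome core and H1 binds the linker DNA between nucleosomes. A library prepared from total RNA can hold these transcripts, whereas selection for poly(A) tails removes most of them.

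The stem-loop was found after the stop codon in 41 of the 66 members. It is shown here because it is the element that sets these transcripts apart and because the H4 genes have letters of their own in it. The sequences come from the GRCm38 genome, read 5′ to 3′ on the strand of the gene, with the stem-loop in capitals and 5 bases on either side in lower case:
H1f2: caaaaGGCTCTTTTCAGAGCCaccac
H1f3: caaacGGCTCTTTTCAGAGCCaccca
H2ac4: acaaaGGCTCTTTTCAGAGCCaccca
H3c2: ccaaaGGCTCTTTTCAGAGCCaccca
H2bc12: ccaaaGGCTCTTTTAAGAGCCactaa
H2ac20: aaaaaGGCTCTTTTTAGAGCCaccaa
H4c8: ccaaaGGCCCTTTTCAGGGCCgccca
H4c2: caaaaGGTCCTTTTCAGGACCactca
H4c9: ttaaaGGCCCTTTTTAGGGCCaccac

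These loops lie in the 3′ UTR, at chr13:23739512-23739527 on the plus strand in H1f2, chr13:23555787-23555802 (plus) in H1f3, chr13:23751572-23751587 (plus) in H2ac4, chr13:23752820-23752835 (plus) in H3c2 and chr13:22036300-22036315 (plus) in H2bc12. Those of H2ac20 (chr3:96220418-96220433) and H4c9 (chr13:22040966-22040981) lie on the minus strand, and those of H4c8 (chr13:23531458-23531473) and H4c2 (chr13:23757366-23757381) on the plus strand. Only 6 kinds of stem-loop occurred. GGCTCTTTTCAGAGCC was found in 24 members of H1, H2A, H2B and H3, and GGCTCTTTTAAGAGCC in 6 members of H1, H2B and H3. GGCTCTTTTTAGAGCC occurred in H2ac20 alone. The H4 genes had 3 kinds of their own, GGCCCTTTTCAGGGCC in 6 genes and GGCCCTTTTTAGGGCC and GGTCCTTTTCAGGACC in 2 each. The hairpin began 21 to 58 bases after the stop codon, with a median of 31. The search took a fixed pattern of 16 bases, which does not require the sides of the hairpin to pair. On the coding strand, 59 of 22527 protein-coding genes, or 0.262%, matched it anywhere after the stop codon. The 41 members are among the 59, as are the histone genes H2ax, H2aw, H2bu2, H2bw2 and H4f16. By class, 4 of 7 H1, 10 of 18 H2A, 9 of 17 H2B, 8 of 12 H3 and 10 of 12 H4 members had the stem-loop. Of the 25 members without one, 18 had fewer annotated bases after the stop codon than the farthest loop found, and 14 of those had none. The 14 include H2ac14, for which no coding sequence is annotated. The other members without a loop (H1f10, H2bc4, H2bc21, H2bc23, H2bc24, H3c8 and H4c1) were annotated past the farthest loop found and had no match.

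The members are close copies of one another, which bears on how reads can be assigned to them. The members with an annotated coding sequence, all but H2ac14, encode 28 distinct proteins: 7 for H1, 8 for H2A, 10 for H2B, 2 for H3 and 1 for H4. In the median H1 gene, 97.7% of the 50-base windows of the transcript occurred in no other annotated transcript, against 17.7% for H2A, 50.3% for H2B, 38.0% for H3 and 60.1% for H4. For 35 members the share was under 50%, and H2ac18, H2ac19, H2bc18, H3c13 and H3c14 had no unique window. The authors' treatment of reads that match several genes is not given in the sources used here, so values of single core histone genes are uncertain, and sums over a class are given beside them. H2bc18 also overlaps Gm20628 and Gm42743 in the annotation.

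Upstream of the start site the classes also differed in their letters. In the 250 bases before the start, both strands searched, 60 members had a RefSeq GRCm38.p6 promoter, and the shares are set against 32851 promoters of the same length. The CCAAT box (CCAAT) occurred in all 17 H2A and all 15 H2B promoters, in 6 of 7 H1 and 8 of 10 H3 promoters, and in 3 of 11 H4 promoters, against 33.8% of all promoters. The octamer ATTTGCAT occurred in 6 H2A and 6 H2B promoters and in no other member, against 1.60% of all. Several H2A and H2B genes, such as H2ac8 and H2bc8, start close together on opposite strands. Their windows can share bases, so the same motif may be counted in both classes. The H1 box AAACACA was present in 5 of 7 H1 promoters (6.25% of all), and the H4 site core GGTCCG in 8 of 11 H4 promoters (6.72% of all). A TATA box written as TATAAA was found in 28 of the 60 (12.4% of all).

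Per length, the most abundant linker histone genes were H1f1, H1f5 and H1f2, with 709, 364 and 283 RPKM (library-scaled counts per kilobase of gene length) as the mean over the 21 libraries. The highest H2A genes were H2ac4, H2ac18 and H2ac19 at 298, 271 and 247 RPKM. Among H2B genes, H2bc18 stood at 985, H2bc3 at 482 and H2bc12 at 468 RPKM. H3c8, H3c2 and H3c1 led the H3 genes at 352, 338 and 298 RPKM, and H4c12, H4c8 and H4c2 led the H4 genes at 465, 462 and 451 RPKM. The 3 germline members, known for their use in developing sperm, differed widely. H2bc1 (older name Hist1h2ba) was at 193 RPKM, whereas H2ac1 (Hist1h2aa) was at 13.1 and the testis H1 gene H1f6 (Hist1h1t) at 10.3. H1f10 reached 1.63 RPKM, and the lowest member was H2bc21 at 0.586 RPKM.

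Histone transcripts took 0.950% to 1.92% of all counts in the first experiment and 0.428% to 0.897% in the second. The mean level was higher in the first experiment for 66 of 66 members, by 0.20 to 2.33 on the log2 scale of CPM. The median difference was 0.78 for H1, 1.13 for H2B, 1.10 for H4, 1.44 for H3 and 1.87 for H2A. The experiments share no group, so this is a difference of level set side by side, with no test.

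Within the groups, histone levels moved from library to library far more than those of most genes. Summed CPM of the 18 H2A genes was 1703, 1067 and 3434 in Trim71KO replicates 1 to 3, and 550, 267 and 799 in Trim71KO_empty. The highest library of the group thus held 3.22 times and 3.00 times the H2A level of the lowest. In W the sum was 2266, 3114 and 3807 CPM, and in Ago2KO 2708, 1513 and 2921 CPM. Replicate 3 was the highest and replicate 2 the lowest in both groups with an edited Trim71 gene, and replicate 2 was also the lowest in Ago2KO. The 5 classes moved together: in 6 of the 7 groups 1 library was the lowest in every class, and in 5 of the 7 groups 1 library was the highest in every class. H1 and H2B varied less than H2A. The 7 H1 genes summed to 2432, 2146 and 3376 CPM in Trim71KO and to 1579, 1427 and 1970 CPM in Trim71KO_empty. The 17 H2B genes summed to 3184, 2819 and 4257 CPM in Trim71KO and to 1592, 1261 and 2049 CPM in Trim71KO_empty.

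**Figure D1:**
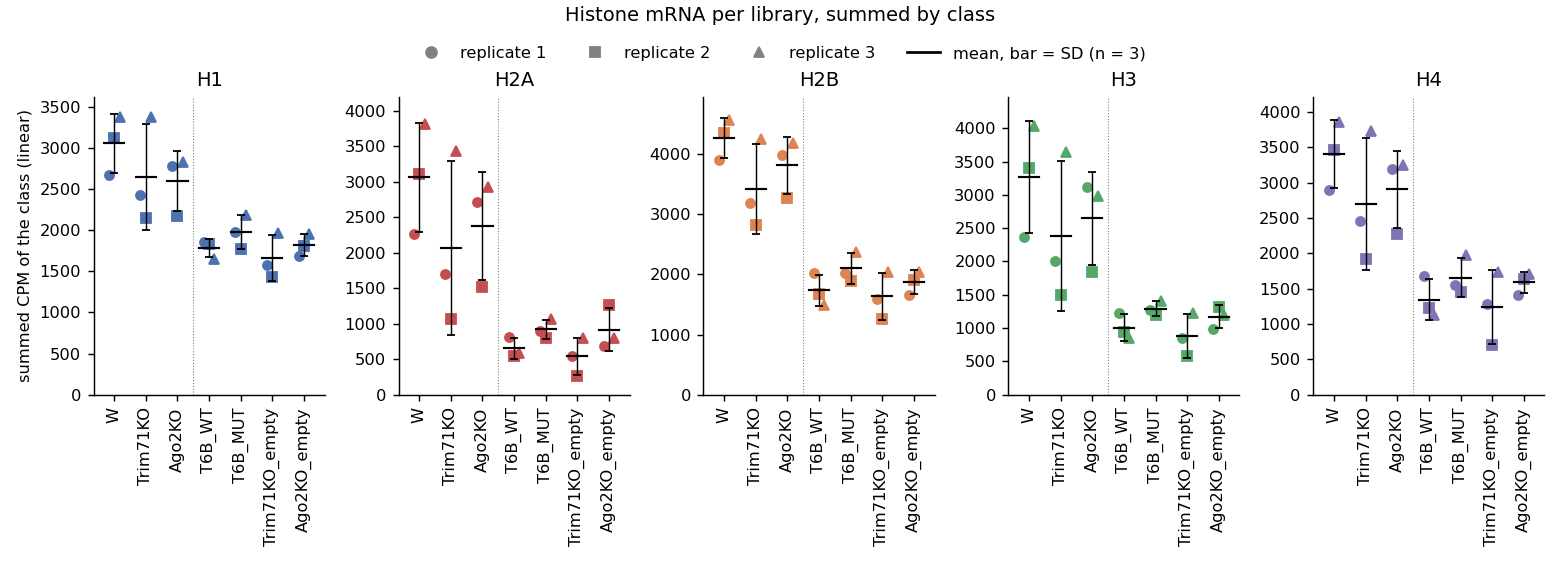
Summed CPM of each histone class (y axis, linear from 0) in the 7 groups, with 1 symbol per library, the mean as a line and the SD (n = 3) as a bar; the dotted line separates the experiments, whose CPM were scaled separately. For H2A, Trim71KO replicates 1 and 2 (1703 and 1067 CPM) lie below all W libraries (2266 to 3807 CPM), and replicate 3 (3434 CPM) lies within their range.

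The pooled within-group SD of log2 CPM had a median of 0.38 over the 66 members, with a range of 0.12 to 0.64. By class the median was 0.24 for H1, 0.24 for H2B, 0.38 for H4, 0.41 for H3 and 0.57 for H2A. Over the 5987 genes whose mean log2 CPM reached 5 the median SD was 0.083 and the 95th percentile 0.195, and 60 of the 66 members, or 57 of the 61 of that abundance, lay above that percentile. The 28 genes listed for DNA replication and S phase had a median SD of 0.082 (0.050 to 0.148). The part of the cell cycle in these spreads was not tested. The replacement histones H3f3a and H3f3b, which encode H3.3 from polyadenylated transcripts, had SDs of 0.065 and 0.060, and H2az1 (H2A.Z) had 0.092.

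H2ax, the DNA-damage-marked H2A variant, is no member by its symbol, but it has a stem-loop and an SD of 0.42, within the range of the members. It was at 331, 478 and 559 CPM in W and at 295, 216 and 553 CPM in Trim71KO. The other histone genes with a stem-loop outside the rule had SDs of 0.37 (H4f16), 0.34 (H2bu2), 0.21 (H2aw) and 0.17 (H2bw2, which was barely detected). H2ax, H4f16 and H2aw lay above the 95th percentile of the abundant genes, and H3f3a, H3f3b and H2az1 lay below it. H2bu2 and H2bw2 are less abundant than the genes of that percentile.

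**Figure D2:**
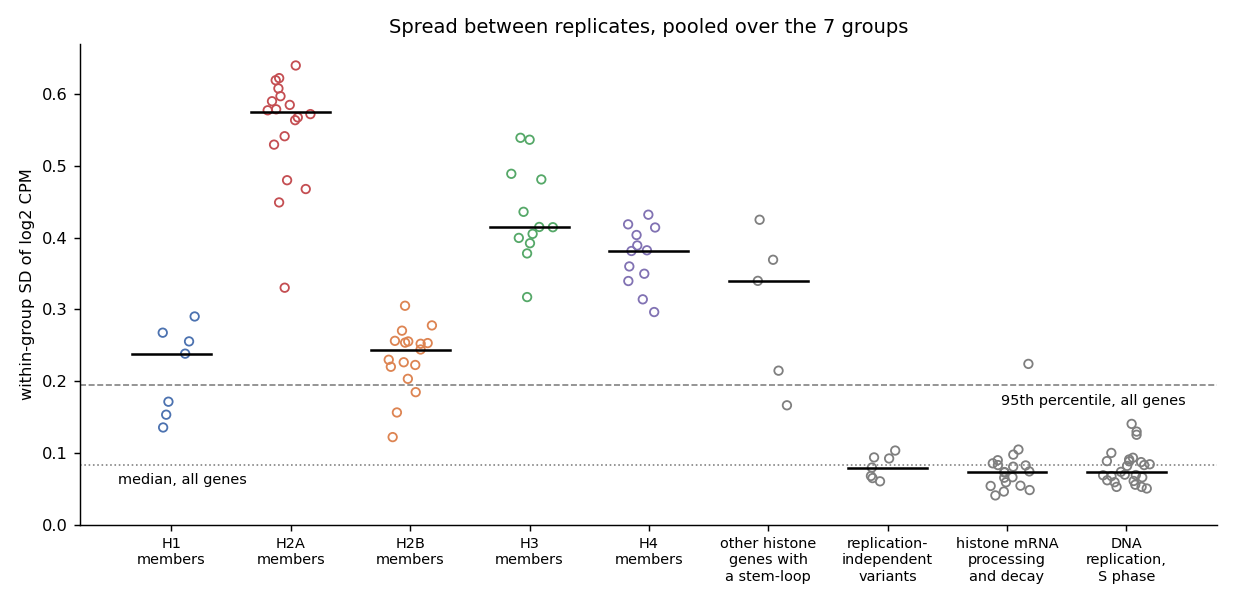
Within-group SD of log2 CPM (y axis, linear from 0) of each member by class and of 4 sets of other genes (the last 3 limited to genes of the abundance named next, and without H2ax), 1 point per gene with the median as a line; the dashed and dotted lines are the 95th percentile and the median of all genes whose mean log2 CPM reached 5. H2A members lie at 0.33 to 0.64, and the 25 S-phase genes drawn at or below 0.140.

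Other short and GC-rich genes varied more than longer ones in these libraries too. Genes of that abundance that are no members and are under 1000 bases had a median SD of 0.104 (407 genes), and those under 1000 bases with a GC content over 55% a median of 0.148 with a 95th percentile of 0.364 (94 genes), against 0.080 for genes over 1000 bases. Median length in the deposited table was 1217 bases for H1, 476.5 for H2A, 524 for H2B, 625 for H3 and 504.5 for H4. Median GC content was 54.5% for H1, 55.6% for H2B, 57.0% for H4, 59.9% for H3 and 64.3% for H2A, the order in which the SDs also rose. Across the 66 members, which share the libraries, the SD and GC content had Pearson's r = 0.52 and Spearman's rho = 0.54, and the SD and the share of unique windows r = -0.49. Within a class rho with GC content was 0.21 for H1, 0.62 for H2A (where r was 0.32), 0.059 for H2B, 0.53 for H3 and 0.007 for H4.

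Other RNAs without a poly(A) tail, listed as 11 rows, deviated from their group mean by -0.31 to 0.18 (list median, log2) in the first experiment and by -0.59 to 0.36 in the second, with the members' sign in 7 of 9 and 11 of 12 libraries. Rn7sk, an RNA that restrains transcription elongation, was at 9218, 7632 and 7880 CPM in W, where the members were lowest in replicate 1. Terc, the telomerase RNA, singled out after its values were seen, was the one whose sign was compared on its own. In Trim71KO it was at 21.2, 17.3 and 57.7 CPM, and its deviations from the group mean were -0.38, -0.66 and 1.05 on the log2 scale, beside -0.10, -0.46 and 0.55 for the median member. The sign of Terc matched that of the members in 9 of 9 libraries of the first experiment and in 11 of 12 of the second. The list holds another row named Terc, whose sign was not compared. The trend of each library's counts with gene length and GC content over all genes, read at the members, had their sign in 9 of 9 and 8 of 12 libraries and spanned -0.15 to 0.19 and -0.14 to 0.14. The median S-phase gene deviated by -0.015 to 0.015 in the first experiment and by -0.10 to 0.07 in the second. The median H2A gene ranged from -0.82 to 0.93 and from -0.86 to 0.76. The part of RNA length, base composition and capture of RNAs without a tail in the comparisons that follow was not tested.

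**Figure D3:**
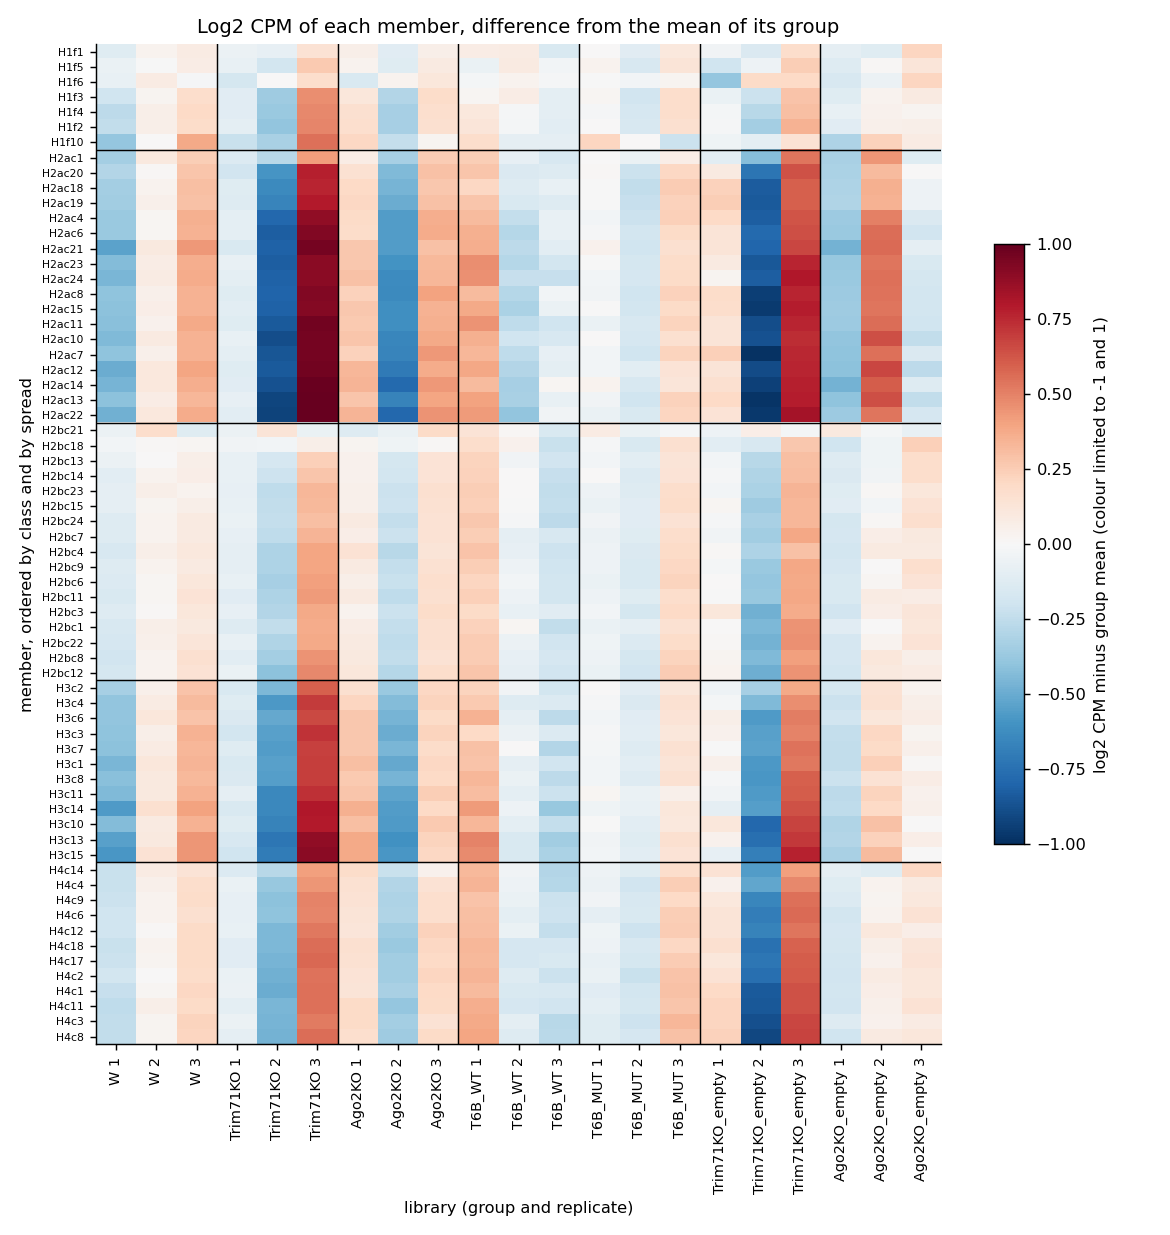
Log2 CPM of each of the 66 members (rows, by class and then by spread) in each of the 21 libraries (columns), as the difference from the mean of its group; red is above and blue below, with colour limited to -1 and 1. Trim71KO 2 and Trim71KO_empty 2 are blue, and Trim71KO 3 and Trim71KO_empty 3 red, in nearly all rows.

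The first comparison asked how loss of Trim71 alters histone transcripts. Their mean level was lower in Trim71KO than in W, at 0.774 of the W total (ratio of means), but the libraries overlapped in every class and no member passed the test. The total of the 66 genes was 14113, 17462 and 19637 CPM in W and 11778, 9439 and 18436 CPM in Trim71KO. The Trim71KO library with the highest total thus exceeded 2 of the 3 W libraries. edgeR's quasi-likelihood test with Benjamini-Hochberg adjustment called 0 members higher and 0 lower, where it called 32.6% of all 21210 genes tested. At an unadjusted p under 0.05 it had 0 higher and 3 lower members (20.4% of all genes lower). DESeq2 called 0 higher and 4 lower, the H2B genes H2bc13, H2bc14, H2bc15 and H2bc24 (15.0% of all genes lower). In bulk RNA, fewer cells in S phase and less histone mRNA per cell cannot be told apart. Markers of other cell states moved too: 6 of 6 primitive endoderm markers fell (summed to 35.1 to 37.3 CPM in W and 4.14 to 4.51 CPM in Trim71KO), as did 6 of 7 two-cell-like markers tested (14.4 to 16.7 and 0.879 to 1.498 CPM). Of 5 trophoblast markers 1 rose and 3 fell (summed to 26.0 to 29.2 and 19.7 to 22.2 CPM), and of 2 fibroblast markers tested 1 rose and 1 fell (7.15 to 7.68 and 10.5 to 11.6 CPM). Their part in the histone values was not tested.

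The fold changes of the members were nearly all negative in this comparison, 65 of 66, with a median of -0.40 against 0.00 over all genes. The class medians were -0.21 for H1, -0.33 for H2B, -0.33 for H4, -0.45 for H3 and -0.59 for H2A. The members move together within a library, so their common sign is not a set of independent observations. H2ac4, a canonical H2A gene, was at 210, 275 and 349 CPM in W and 162, 101 and 321 CPM in Trim71KO (log2 fold change -0.51, SE 0.48, edgeR adjusted p = 0.478). The highest Trim71KO library exceeded 2 of the W libraries and the other two lay below all of W. H4c8, an H4 gene, was at 296, 356 and 408 CPM in W and 244, 187 and 383 CPM in Trim71KO (-0.38, SE 0.30, adjusted p = 0.40), with the same order of libraries. H1f1, the most abundant H1 gene per length, was nearly level, at 538, 602 and 621 CPM in W and 544, 537 and 628 CPM in Trim71KO (-0.04, SE 0.07, adjusted p = 0.687).

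H2bc18, the most abundant member per length, was at 467, 481 and 483 CPM in W and at 441, 444 and 472 CPM in Trim71KO (-0.08, SE 0.04, adjusted p = 0.189). Its 95% interval reached 0.09 on either side of that estimate, the narrowest of the members described here. For the median member the interval reached 0.72 on either side, and for the median H2A member 1.23, so a change of less than about that size was not detectable. No member had Trim71KO libraries all below or all above those of W, where 21.6% of all genes lay wholly below.

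The outcome depended on 1 library, the highest of Trim71KO, and also on the fit, since other settings moved the count (given in the closing section). Without Trim71KO replicate 3, edgeR's test called 18 members lower (16.8% of all genes were called lower in that fit), the median was -0.71, and 55 members were lower at an unadjusted p under 0.05 (21.7% of all genes). The 18 were 15 H2B genes, H1f6, H2ac1 and H4c14. The 15 include H2bc1, H2bc3 and H2bc12, and 0 of the 12 H3 genes were among the 18 although their median fold change was larger than that of H2B.

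Ago2KO gave a like picture on a smaller scale. The total was 15777, 11078 and 16159 CPM, or 0.840 of that in W, and all classes overlapped. edgeR called 0 members in either direction, against 18.0% of all genes. At an unadjusted p under 0.05 it had 1 lower (14.1% of all genes) and 0 higher, and DESeq2 called 0 (17.6% of all genes). Of the 66 fold changes 65 were negative, with a median of -0.26 (H1 -0.21, H2A -0.37, H2B -0.17, H3 -0.31, H4 -0.23). Primitive endoderm markers fell in 6 of 6 cases (summed to 8.87 to 9.85 CPM) and two-cell-like markers in 6 of 7 (3.04 to 3.898 CPM), while 2 of 5 trophoblast markers rose (36.4 to 40.8 CPM) and none of 2 fibroblast markers passed (7.20 to 7.82 CPM); their part was not tested. Only H1f5 and H2bc18 had all 3 Ago2KO libraries below all 3 of W, a pattern shown by 16.4% of all genes. H1f5, a linker histone of proliferating cells, was at 356, 372 and 392 CPM in W and 330, 297 and 342 CPM in Ago2KO (-0.21, SE 0.10, adjusted p = 0.215). H2bc18 was at 456, 434 and 451 CPM in Ago2KO (-0.09, SE 0.04, adjusted p = 0.153). Between Trim71KO and Ago2KO no member passed the test: edgeR called 0 of 66 (34.2% of all genes), 0 had an unadjusted p under 0.05 (21.4% of all genes lower) and DESeq2 called 0 (32.2%). Without Trim71KO replicate 3 that comparison had 12 members lower in Trim71KO, 10 of them H2B, beside 16.8% of all genes, and without Trim71KO replicate 2 it had 1 higher, beside 14.2% of all genes.

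In the second experiment, T6B_WT was compared with the mutant peptide to show what binding of Argonaute by T6B does. The total of the members was 7591, 6236 and 5720 CPM in T6B_WT and 7742, 7088 and 8996 CPM in T6B_MUT, a ratio of means of 0.820. Again no member passed: edgeR called 0 higher and 0 lower (16.0% of all 21505 genes), with 3 lower (13.2% of all genes) and 0 higher at an unadjusted p under 0.05, and DESeq2 called 0 (15.7%). The fold changes were negative for 65 of 66, with medians of -0.15 for H1, -0.27 for H2B, -0.30 for H4, -0.39 for H3 and -0.48 for H2A, and -0.35 over all. For 14 members every T6B_WT library lay below every T6B_MUT library, which is 14 of 66 beside 18.6% of all genes. They were 7 H2A genes, H2bc9, 4 H3 genes and the linker histones H1f4 and H1f6. All 8 two-cell-like markers rose in T6B_WT (summed to 95.9 to 99.0 CPM, against 19.8 to 21.7 CPM in T6B_MUT), and none of 6 primitive endoderm markers passed (20.0 to 23.7 and 24.0 to 25.1 CPM). Of 3 trophoblast markers tested 1 rose (25.4 to 26.8 and 20.2 to 20.6 CPM) and of 3 fibroblast markers 1 fell (2.73 to 3.43 and 4.04 to 4.68 CPM), and the part of these cell states was not tested.

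H2ac4 shows that pattern, with 73.7, 50.0 and 56.0 CPM in T6B_WT and 92.0, 80.8 and 111 CPM in T6B_MUT (-0.66, SE 0.37, adjusted p = 0.299). H1f4, one of the somatic linker histones, was at 298, 275 and 259 CPM in T6B_WT and 333, 299 and 378 CPM in T6B_MUT (-0.28, SE 0.12, adjusted p = 0.155). In both genes the groups did not overlap. H1f6 was at 4.64, 4.85 and 4.68 CPM in T6B_WT and 6.07, 5.97 and 6.22 CPM in T6B_MUT (-0.37, SE 0.14, adjusted p = 0.0984), the smallest adjusted p of the members here. The 95% interval of the median member reached 0.62 on either side.

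Trim71KO_empty was the group in which members passed the test. Against T6B_MUT, edgeR called H1f3 and H1f4 lower and H1f6 higher, 2 members lower beside 13.4% of all genes and 1 higher beside 14.4%, or 3 of 66 beside 27.8% in all. The total of the members was 5844, 4234 and 7777 CPM, 0.749 of that in T6B_MUT, and replicate 3 of Trim71KO_empty exceeded 2 of the T6B_MUT libraries. H1f3, a somatic linker histone, was at 519, 449 and 580 CPM in T6B_MUT and 377, 340 and 482 CPM in Trim71KO_empty (-0.37, SE 0.12, adjusted p = 0.0338), so that 1 library of the knockout lay inside the control range. H1f4 was at 255, 214 and 319 CPM in Trim71KO_empty, also with 1 library inside the control range (-0.36, SE 0.12, adjusted p = 0.0456). Fitting only these groups ended both calls, with an adjusted p of 0.131 for H1f3 and 0.19 for H1f4 by edgeR, whereas that of H1f6 held (0.0263). Primitive endoderm markers fell in 5 of 6 cases (summed to 8.56 to 9.88 CPM), two-cell-like markers had 1 higher and 1 lower of 8 (19.9 to 21.04 CPM), trophoblast markers 1 higher and 2 lower of 3 (16 to 16.6 CPM) and fibroblast markers 1 higher of 3 (8.79 to 9.38 CPM), and their part was not tested.

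H1f6 went the other way. It was at 5.99, 9.17 and 9.21 CPM in Trim71KO_empty, with replicate 1 inside the T6B_MUT range and the others above it (0.41, SE 0.14, adjusted p = 0.0345). Against Ago2KO_empty, where it was at 4.37, 4.74 and 5.82 CPM, the groups did not overlap and it was the 1 member called (0.71, SE 0.15, adjusted p = 0.00102), where 31.6% of all genes were called and 14.7% were higher. H2bc21 also lay wholly above in that comparison, as did 18.5% of all genes. In the first experiment H1f6 was at 14.3, 16 and 15 CPM in W and 11.4, 13 and 14.6 CPM in Trim71KO (-0.21, SE 0.10, adjusted p = 0.112). The effect in the first experiment minus that in the second was -0.63 (SE 0.18, edgeR adjusted p = 0.0256), and H1f6 was the only member called for such a difference, where 10.1% of all genes were called and 5.04% were lower. That call was lost without Trim71KO replicate 1, W replicate 2, Trim71KO_empty replicate 2 or Trim71KO_empty replicate 3.

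The other members pointed lower but did not pass. H3c2, an H3 gene, was at 166, 153 and 180 CPM in T6B_MUT and 109, 89.8 and 148 CPM in Trim71KO_empty, wholly below (-0.52, SE 0.18, adjusted p = 0.0556). H2ac4 was at 60.1, 29.4 and 81.2 CPM there, with 1 library just above the lowest of T6B_MUT (-0.73, SE 0.37, adjusted p = 0.19). The medians were -0.19 for H1, -0.34 for H2B, -0.41 for H4, -0.53 for H3 and -0.76 for H2A, and 63 of 66 folds were negative. For 13 members the knockout libraries all lay below the control, beside 22.5% of all genes. At an unadjusted p under 0.05, 8 members were lower beside 18.8% of all genes. DESeq2 called 5 lower (12.6% of all genes), adding H2bc7, H2bc11 and H3c2, and H1f6 higher (13.9%).

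Here too the count depended on replicate 3 of the knockout, its highest library. Without Trim71KO_empty replicate 3 the test called 30 members lower (13.3% of all genes) and 0 higher, with a median of -0.77: 12 H2B, 11 of the 12 H3, 3 H2A and 4 H1 genes, and 0 of the H4 genes. With other libraries left out the calls fell away. None was called lower without T6B_MUT replicate 1 or 3 or Trim71KO_empty replicate 1 or 2, and H1f6 was not called without any 1 of the T6B_MUT replicates or without Trim71KO_empty replicate 2 or 3. In the comparison with Ago2KO_empty, 14 members were lower without Trim71KO_empty replicate 3 (13.1% of all genes) and H1f6 still higher (13.0%), where with it 0 were called lower, 4 were lower at an unadjusted p under 0.05 (22.2% of all genes) and DESeq2 called H2bc11 and H3c2 lower (15.6%) and H1f6 higher (15.1%).

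**Figure D4:**
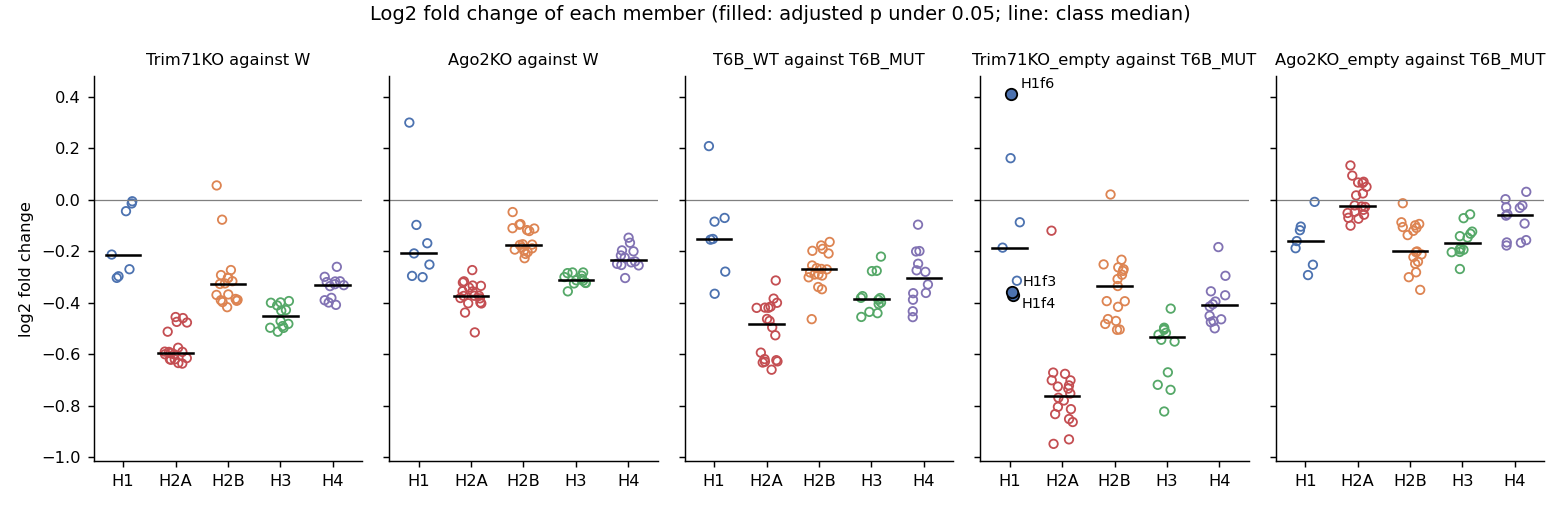
Log2 fold change (y axis) of each of the 66 members in the 5 comparisons with a control, by class; filled points passed edgeR's test at an adjusted p under 0.05, and the line is the class median. Only H1f3, H1f4 and H1f6 in Trim71KO_empty are filled, and the H2A median is the lowest of the classes in all but the Ago2KO_empty panel.

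By the median fold change of the histone members, though not over all genes, the libraries labelled Ago2KO_empty differed least from T6B_MUT. Their total was 6440, 7936 and 7720 CPM, 0.927 of the control, and the H2A sum of 688, 1257 and 805 CPM had a ratio of means of 0.996. edgeR called 0 members (28.8% of all genes), with 1 lower (17.7% of all genes) and 0 higher at an unadjusted p under 0.05, and DESeq2 called 0 (28.0%). H1f6 and H2bc21 lay wholly below the control, as did 20.0% of all genes. The median was -0.10, with 56 negative folds, and by class -0.16 for H1, -0.02 for H2A, -0.20 for H2B, -0.17 for H3 and -0.06 for H4. Without Ago2KO_empty replicate 3, 3 linker histone genes were called lower (H1f1, H1f5 and H1f6), beside 16.9% of all genes, and without T6B_MUT replicate 2 there was 1, beside 9.42%. Two-cell-like markers rose in 7 of 8 cases (summed to 68.1 to 81.6 CPM), primitive endoderm markers fell in 3 of 6 (15.5 to 21.7 CPM), 2 of 3 trophoblast markers rose (25.5 to 27.8 CPM) and no fibroblast marker passed (4.36 to 5.26 CPM); their part was not tested. The difference of the Ago2 effect between the experiments was called for 0 members (2.13% of all genes), with 0 at an unadjusted p under 0.05 in either direction and 0 by DESeq2.

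Members with and without an annotated stem-loop had similar medians, given here without a test. In Trim71KO the median was -0.39 for the 41 with the loop and -0.40 for the 25 without. In Trim71KO_empty it was -0.48 and -0.40, and in T6B_WT -0.36 and -0.31. Members with more than 50% of unique windows had a median of -0.37 in Trim71KO and -0.39 in Trim71KO_empty, and the others -0.47 and -0.67.

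The genes that make and remove histone transcripts varied less from library to library, with SDs of 0.041 to 0.105 in all but Tut4 (0.22) of the 19 with a mean log2 CPM reaching 5. Of a list of 22 genes for processing and decay of histone mRNA, 7 rose and 3 fell in Trim71KO, 4 rose and 2 fell in Ago2KO, and 1 rose and 2 fell in T6B_WT. In Trim71KO_empty 5 rose and 6 fell, and in Ago2KO_empty 4 rose and 5 fell. The list medians lay between -0.05 and 0.02. Of all genes, 32.6% were called in Trim71KO, 18.0% in Ago2KO and 16.0% in T6B_WT, both directions together. The shares were 27.8% in Trim71KO_empty and 28.8% in Ago2KO_empty.

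Npat, the coactivator that cyclin E-Cdk2 phosphorylates to switch on histone transcription, rose in both groups with an edited Trim71 gene. It was at 95.4, 92.7 and 92.3 CPM in W and 125, 131 and 113 CPM in Trim71KO (0.40, SE 0.06, adjusted p = 0.00014). In Trim71KO_empty it was at 149, 157 and 139 CPM against 112, 110 and 121 CPM in T6B_MUT (0.38, SE 0.07, adjusted p = 0.00049). In neither case did the groups overlap. Zfp473, a zinc-finger protein that works with the U7 snRNP, fell in the same groups. Its levels were 63.6, 62.9 and 61.2 CPM in W and 38.3, 37.4 and 37.7 CPM in Trim71KO (-0.73, SE 0.05, adjusted p = 1.4e-07). They were 51.6, 47.5 and 47.4 CPM in T6B_MUT and 30.4, 34.6 and 32.0 CPM in Trim71KO_empty (-0.60, SE 0.07, adjusted p = 7.9e-06). The calls of both genes held in every alternative run, and neither gene passed the test in Ago2KO, T6B_WT or Ago2KO_empty.

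Slbp, which binds the stem-loop, was level in Trim71KO, at 113, 106 and 115 CPM against 115, 111 and 113 CPM in W (-0.03, SE 0.05, adjusted p = 0.71). It fell in Ago2KO, to 94.6, 93.4 and 99.2 CPM (-0.24, SE 0.05, adjusted p = 0.0026). Against the 103, 99.7 and 109 CPM of T6B_MUT it also fell in Ago2KO_empty, at 81.3, 83.7 and 91.1 CPM (-0.28, adjusted p = 0.0035), in Trim71KO_empty (-0.22, adjusted p = 0.014) and in T6B_WT (-0.21, adjusted p = 0.036). The call in Trim71KO_empty was lost without T6B_MUT replicate 3 or Trim71KO_empty replicate 1, and that in T6B_WT without T6B_MUT replicate 1 or 3 or any 1 of the T6B_WT replicates.

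Eri1, the exonuclease that trims histone mRNA ends, rose in Trim71KO, from 76.3, 73.9 and 73.1 CPM in W to 107, 103 and 108 CPM (0.51, SE 0.05, adjusted p = 3.7e-06). It also rose in Ago2KO, to 88.3, 99.0 and 94.7 CPM (0.34, SE 0.05, adjusted p = 0.0004). It was called higher in T6B_WT (0.23, adjusted p = 0.03), Trim71KO_empty (0.19, adjusted p = 0.047) and Ago2KO_empty (0.29, adjusted p = 0.0046). Removing the length and GC trend ended each of those calls in the second experiment. The call in Trim71KO_empty was also lost with DESeq2 and without any 1 library of T6B_MUT or Trim71KO_empty. The call in T6B_WT was lost without T6B_MUT replicate 1 or 2 or T6B_WT replicate 2 or 3.

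Lsm11, a U7 snRNP subunit, was called in none of the 5 comparisons with a control at 11.5 to 16.1 CPM. Lsm10, the other U7-specific subunit, was called lower in Ago2KO_empty alone, at 6.77, 6.84 and 9.07 CPM against 10.03, 10.3 and 9.27 CPM in T6B_MUT (-0.38, adjusted p = 0.018), and the call was lost without Ago2KO_empty replicate 1 or 2 or T6B_MUT replicate 1 or 2. Casp8ap2 (FLASH), a histone processing factor, was called higher in Trim71KO (0.24, adjusted p = 0.029), a call lost without Trim71KO replicate 1 or 2 or W replicate 2 or 3. Ctif, which takes part in translation of histone mRNA, was higher in Trim71KO_empty (0.62, adjusted p = 0.0066). Nelfe, a subunit of the negative elongation factor, was lower in T6B_WT (-0.27, adjusted p = 0.011) and in Trim71KO_empty (-0.34, adjusted p = 0.0011).

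**Figure D5:**
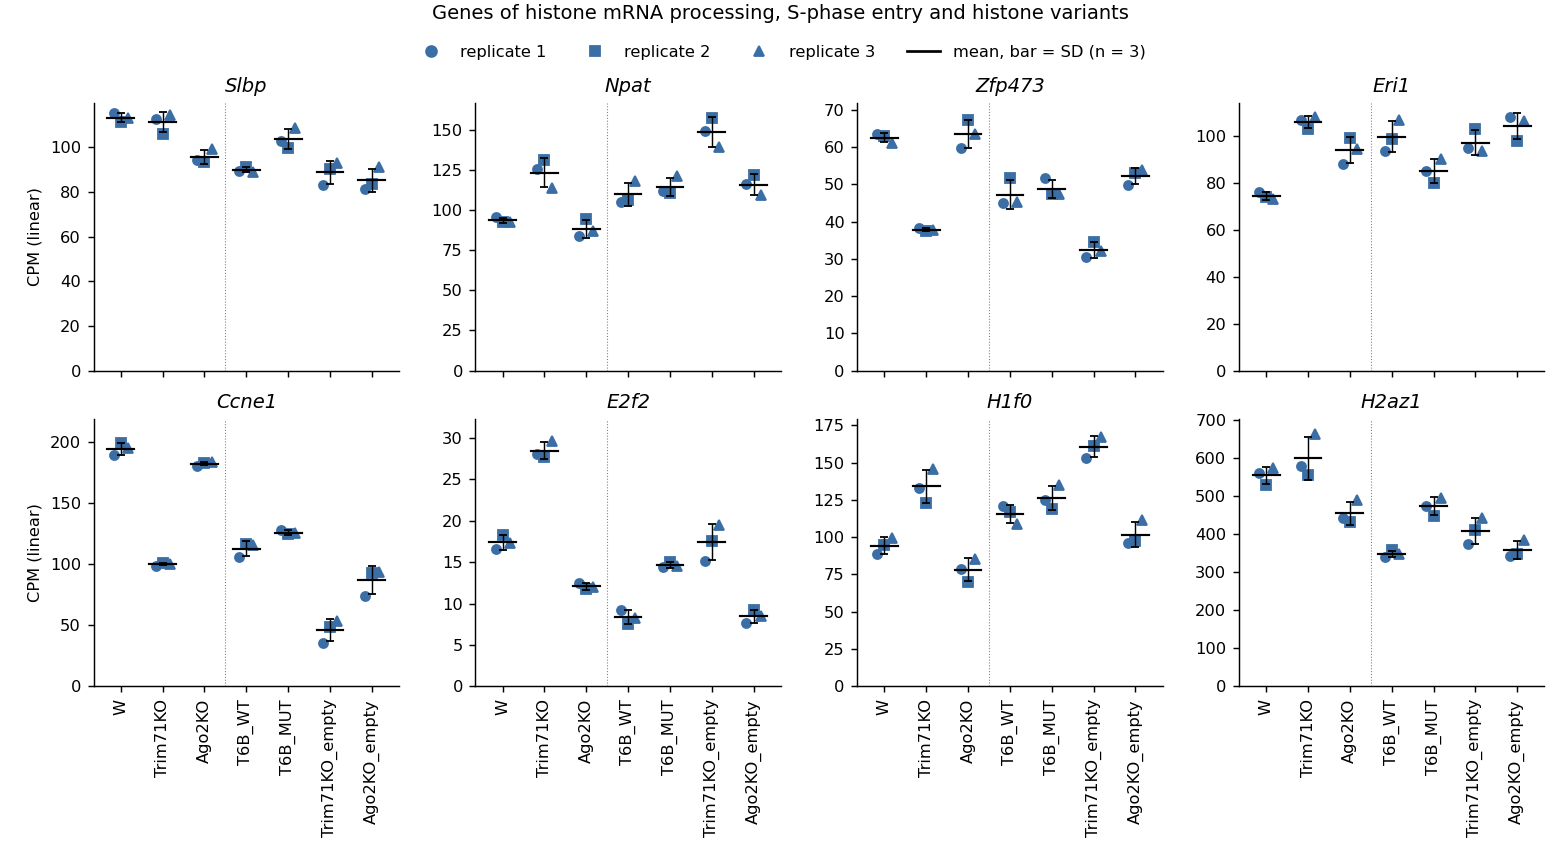
CPM (y axes, linear from 0) of 4 histone mRNA processing or transcription genes (Slbp, Npat, Zfp473, Eri1), 2 genes of S-phase entry (Ccne1, E2f2) and 2 histone variants (H1f0, H2az1) in the 7 groups, 1 symbol per library with mean and SD (n = 3). Zfp473 and Ccne1 are lower, and Npat and H1f0 higher, in Trim71KO than in W and in Trim71KO_empty than in T6B_MUT, with no overlap.

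Genes of DNA replication and S phase had calls in both directions in 3 comparisons and in 1 direction in the knockout groups of the second experiment. Of 28 such genes, 10 rose and 4 fell in Trim71KO, 2 rose and 5 fell in Ago2KO, and 1 rose and 5 fell in T6B_WT. In Trim71KO_empty 17 fell and none rose (median -0.26), and in Ago2KO_empty 11 fell and none rose (median -0.15). The shares of all genes called in either direction were 32.6%, 18.0%, 16.0%, 27.8% and 28.8%, in the same order of comparisons. Ccne1, the cyclin E1 that drives S-phase entry, was at 189, 199 and 195 CPM in W and 98.9, 101 and 100 CPM in Trim71KO (-0.96, SE 0.04, adjusted p = 1.3e-09). In the second experiment it was at 128, 124 and 125 CPM in T6B_MUT, at 35.7, 49.0 and 53.5 CPM in Trim71KO_empty (-1.45, SE 0.13, adjusted p = 4.9e-06) and at 73.6, 93.0 and 93.7 CPM in Ago2KO_empty (-0.54, SE 0.13, adjusted p = 0.0077). E2f2, an activating E2F factor, rose in Trim71KO, to 28.0, 27.7 and 29.7 CPM from 16.6, 18.3 and 17.4 CPM (0.71, adjusted p = 1.2e-06). It fell in Ago2KO, to 12.5, 11.7 and 12 CPM (-0.53, adjusted p = 8.2e-05), and in T6B_WT, to 9.19, 7.54 and 8.32 CPM from 14.4, 15.1 and 14.6 CPM (-0.81, adjusted p = 2.7e-05).

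Replication-independent histone variants, listed as 11 genes including H1f10 and H2ax, moved in both directions. In Trim71KO 2 rose and 1 fell, in Ago2KO 4 fell, in T6B_WT 1 fell, in Trim71KO_empty 2 rose and 4 fell, and in Ago2KO_empty 4 fell. Among all genes, 32.6%, 18.0%, 16.0%, 27.8% and 28.8% were called in these comparisons, in that order. H1f0, the linker histone of slowly dividing and differentiated cells, rose in Trim71KO, from 88.5, 94.9 and 99.7 CPM to 133, 123 and 146 CPM (0.51, SE 0.08, adjusted p = 0.00018), and in Trim71KO_empty (0.35, SE 0.07, adjusted p = 0.0012). It was lower in Ago2KO_empty (-0.31, adjusted p = 0.0037) and in Ago2KO (-0.27, adjusted p = 0.026), where the call was lost without Ago2KO replicate 1 or 2 or W replicate 2 or 3. H2az1 fell in Ago2KO (-0.28, adjusted p = 0.0072), T6B_WT (-0.44, adjusted p = 0.0003) and Ago2KO_empty (-0.40, adjusted p = 0.00051). Macroh2a2, a macroH2A variant of repressed chromatin, fell in Trim71KO_empty (-0.51, adjusted p = 0.00064).

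Of 20 histone chaperone genes, 2 rose and 6 fell in Trim71KO, 3 fell in Ago2KO and 2 fell in T6B_WT. In Trim71KO_empty 1 rose and 7 fell, and in Ago2KO_empty 1 rose and 4 fell. Beside these counts, 32.6%, 18.0%, 16.0%, 27.8% and 28.8% of all genes were called, in that order. Asf1a, which hands H3-H4 to other chaperones, was at 40.9, 37.0 and 36.6 CPM in W, at 29.5, 28.4 and 30.0 CPM in Trim71KO (-0.38, adjusted p = 0.00087) and at 22.3, 27.0 and 25.8 CPM in Ago2KO (-0.61, adjusted p = 4.2e-05). Hat1, which acetylates new H4, fell in Trim71KO_empty (-0.43, adjusted p = 0.00031). Among 11 rows for other RNAs without a poly(A) tail, 1 (Malat1) rose in Trim71KO, a call lost without Trim71KO replicate 1 or 2 or W replicate 2 or 3, and 2 (Malat1 and Rny1) rose in Trim71KO_empty, the Rny1 call being lost without T6B_MUT replicate 3 or Trim71KO_empty replicate 1. Malat1, a nuclear RNA with a cleaved triple-helix end, was at 3038, 3578 and 2773 CPM in T6B_MUT and 8269, 6704 and 6250 CPM in Trim71KO_empty (1.18, SE 0.21, adjusted p = 0.0034), with no overlap.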

How the data were processed

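Total RNA was sequenced from 21 libraries with a stranded TruSeq total RNA kit, per the labels' protocols. The authors deposited read counts per gene and RPKM values; bcl2fastq 2.17, STAR 2.7.3a and the GRCm38/mm10 build are named in the submitters' processing notes, while the annotation, the strand setting and the treatment of reads matching several genes are not given in the sources used here. The gene length column names QuasR, per the file headers. RPKM, as deposited, was used only to rank members and to compare levels between genes. Counts were tested with edgeR 4.0.16 (R 4.3.3; filterByExpr with a minimum count of 10, TMM, robust quasi-likelihood fit, Benjamini-Hochberg adjustment over all genes, threshold 0.05), with the 9 libraries of the first experiment in one fit, the 12 of the second in another, and all 21 for differences between experiments. CPM use TMM-scaled library sizes of each experiment; 0.5 was added before logarithms for SDs. SE is the log2 fold change divided by the root of F. Named were the 3 members of each class highest in RPKM, all H1 and germline members, the most changed called members, 7 fixed processing genes and the most changed gene of each list. The members and lists were chosen with earlier results of these data known. Stem-loops were searched in GENCODE M21 transcripts. On simulated counts for Trim71KO against W, 86% of genes changed by 0.5 log2 and 100% of those changed by 1.0 were recovered (76% and 96% for T6B_WT against T6B_MUT); these are rates over genes in general, not for the more variable members. DESeq2 1.42.0, other scalings and filters, a length and GC correction, replicate blocks and leaving out each library were tried as alternatives.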

Additional observations from a re-analysis of the deposited data

Results flagged for a closer look

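Of the genes selected for naming, markers of cell states included, 12 had a Trim71 effect that differed between the experiments, and 5 an Ago2 effect that did. That selection, set out with the processing, took in the most changed gene of each list in these same data. The test was edgeR's interaction contrast (for Trim71, log2 fold change of Trim71KO against W minus that of Trim71KO_empty against T6B_MUT). As genotype and plasmid change together in the second experiment, the knockout and the plasmid cannot be told apart in these differences. In the libraries labelled Ago2KO_empty, moreover, Ago2 itself overlapped T6B_MUT. A loss of Ago2 is thus not shown on that side of the Ago2 differences. The 1 histone member was H1f6, with -0.63 (SE 0.18, adjusted p = 0.0256). Among genes of the pathway the Trim71 difference was 0.49 for Ccne1 (adjusted p = 0.029), 0.46 for E2f2 (0.0154), 0.32 for Eri1 (0.0219), 0.32 for H2az1 (0.0451) and 0.76 for Macroh2a2 (0.00063). The Macroh2a2 call held in all 21 alternatives. The call for Ccne1 was lost in 9 of 21 and that for H2az1 in 12 of 21, in each case including all 3 fits without a T6B_MUT replicate. E2f2 lost it without T6B_MUT replicate 2, Trim71KO_empty replicate 1 or W replicate 1, and Eri1 without T6B_MUT replicate 1 or 3, Trim71KO_empty replicate 1 or 3 or W replicate 2 or 3.

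The other differences were in markers of cell states. For Trim71 they were -2.23 for Gata6 and -0.97 for Dab2 (primitive endoderm; the second was lost without Trim71KO_empty replicate 3), -0.53 for Thy1 (fibroblasts), and -4.80 for Zscan4c, -3.75 for Zscan4d and -2.61 for Usp17lc (two-cell-like cells). For Ago2 they were -1.67 for Gata6, -1.17 for Dab2, -4.07 for Zscan4c, -4.48 for Zscan4d and -4.0 for Usp17lc.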

How the results depend on the processing

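All 66 members passed the filter on low counts. The spread between replicates and the near-identity of the copies limit the results. The library lowest in histone total also held the fewest counts in Trim71KO, Ago2KO, T6B_WT, T6B_MUT and Trim71KO_empty, but not in W or Ago2KO_empty. In units of 1000000 counts, replicates 1 to 3 held 39.7, 35.8 and 49.2 in Trim71KO and 40.7, 38.2 and 38.6 in Ago2KO_empty. The part of depth in the spread was not tested. Of 441 alternative values for the member counts and medians, 392 held and 49 moved, and the cause was not tested beyond fewer libraries in the fits that leave one out. No named gene's call reversed in sign, and 213 of the alternative values for named genes lost a call. Replicate numbers did not pair libraries: the deviations of same-numbered libraries correlated at -0.215 to 0.219 in the first experiment and -0.166 to 0.173 in the second, over 0.1 in 4 of 9 and 3 of 18 pairs, and a library correlated best with its own number in 8 of 18 and 11 of 36 cases. With a replicate block the calls were 13 lower in Trim71KO against W (19.7% of members beside 15.7% of all genes), 2 lower in Ago2KO against W, 1 lower in Ago2KO_empty against T6B_MUT and 1 higher in Trim71KO against Ago2KO. With the length and GC trend removed they were 1 higher and 3 lower in Trim71KO, 1 higher and 1 lower in Ago2KO, 2 higher in Trim71KO against Ago2KO, and 2 higher and 7 lower in Trim71KO_empty against Ago2KO_empty. With the replicate block and that correction together they were 3 higher and 6 lower in Trim71KO, 1 higher and 2 lower in Ago2KO, 5 lower in Trim71KO_empty against T6B_MUT, 2 higher and 3 lower in Trim71KO against Ago2KO, and 2 higher and 6 lower in Trim71KO_empty against Ago2KO_empty. In the same direction and comparison, the share of all genes called, where members were, was 8.02% to 16.9% with the block, 11.8% to 22% with the correction, 12.6% to 22.9% with both, 13.8% to 17.3% with upper-quartile factors and 8.16% to 18.7% with only the groups compared. DESeq2 called 4 lower in Trim71KO, 5 lower in Trim71KO_empty against T6B_MUT and 2 lower against Ago2KO_empty. Upper-quartile factors gave 1 lower in Trim71KO and 1 lower in Ago2KO_empty. Fitting only the groups compared gave 1 lower in Ago2KO, 3 lower in T6B_WT and 0 lower in Trim71KO_empty. Leaving out 1 library in turn, members called lower ranged from 0 to 18 in Trim71KO against W, 0 to 30 in Trim71KO_empty against T6B_MUT, 0 to 3 in Ago2KO_empty, 0 to 12 in Trim71KO against Ago2KO, 0 to 14 in Trim71KO_empty against Ago2KO_empty and 0 to 1 for the difference of the Trim71 effect, whose median ranged from -0.26 to 0.36. Members called higher ranged from 0 to 1 in Trim71KO_empty against T6B_MUT and in Trim71KO against Ago2KO. Over all alternatives the median fold change stayed negative in Trim71KO (-0.71 to -0.21), Ago2KO (-0.38 to -0.09), T6B_WT (-0.51 to -0.25) and Trim71KO_empty (-0.77 to -0.25), and ran from -0.24 to 0.06 in Ago2KO_empty.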
